A study of Homo sapiens with 4 samples.

Results

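The collagen genes were taken as the rows of the count table with a symbol of the form COL, number, A, number and the transcript type protein coding. There were 44 of them among 35606 genes. Their class was assigned from textbook biochemistry: 11 encode fibrillar chains, 6 encode the chains of type IV collagen of basement membranes, and 27 belong to other types. The libraries were made from K562, an established cell line from a human chronic myelogenous leukaemia, which expresses erythroid genes. The compared groups were 2 libraries from cells expressing JAZF1-SUZ12 (fusion libraries), a gene fusion of endometrial stromal sarcoma in which JAZF1 is joined to the Polycomb subunit SUZ12, and 2 libraries from mock cells. The labels do not say how the fusion was delivered, whether the cells were a clone or a pool, or whether the numbered libraries came from separate cultures, so p-values measure the spread between these libraries, which may be technical. A source label names uterus for every sample, while the cell line is given as K562.

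Collagens are secreted or membrane-bound proteins whose chains wind into a rope-like helix of chains. Some types are built from identical chains of one gene, and others, such as types I, V, VI and IX, from chains of different genes. Fibrillar collagens form the tensile fibrils of connective tissue, type IV forms the sheet of basement membranes, and collagen VI forms beaded filaments around cells. Mesenchymal cells are the main producers of fibrillar collagen in the body, and blood cells are not known as major producers.

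Libraries held between 17260936 and 24423028 counts. JAZF1 was at 0.587 and 1.27 CPM (counts per 1000000 counts of the library) in the mock libraries and at 33.3 and 29.9 CPM in the fusion libraries, and SUZ12 was at 136 and 131 CPM against 275 and 269 CPM. Both genes were therefore higher in the libraries labelled as carrying the fusion. The erythroid transcription factor genes GATA1 and KLF1 were present in every library, GATA1 between 255 and 282 CPM and KLF1 between 155 and 165 CPM. Other erythroid genes were called higher. HBZ rose from 545 and 573 CPM to 1049 and 1008 CPM (adjusted p = 2.47e-09 by edgeR), and HBG1 and TFRC rose by 0.21 and 0.16 on the log2 scale. Among 9 stromal markers, LUM and POSTN had 0 counts in every library. The summed level of all 9 came to 23.9 and 21.7 CPM in mock libraries and to 39.0 and 40.9 CPM in fusion libraries, most of it from MME, a surface peptidase that leukaemia cells also carry. Without MME the sum came to 4.16 and 2.63 CPM in mock libraries and to 6.60 and 6.39 CPM in fusion libraries. Of the 5 stromal markers with enough counts for a test, MME, PDGFRB and TWIST1 were called higher, beside 13.3% of all genes tested. TWIST1 passed the filter on low counts through the fusion libraries alone. PDGFRB had 19 and 4 counts in mock and 41 and 32 in fusion libraries (adjusted p = 0.0457 by edgeR). DCN had a log2 fold change of -0.08. THY1, at 5 and 6 counts in mock against 1 and 4, and PDGFRA, at 5 and 6 against 3 and 0, were below mock in CPM in both fusion libraries. The part of these markers in the collagen results was not tested. Endothelial markers, nearly all PECAM1, summed to 8.56 and 12.7 CPM in mock against 14.5 and 13.6 CPM, with TEK at 0. VWF had 0 counts in both mock libraries and 7 and 10 in fusion libraries, at least 2.83-fold higher against a floor of 3 counts per library. The sum of epithelial markers came to 203 and 195 CPM against 214 and 211 CPM, with KRT5 at 0. Its 2 tested members went opposite ways. KRT19, between 69.3% and 76.6% of the sum, was called higher, with a log2 fold change of 0.19 (adjusted p = 0.00940 by edgeR). EPCAM was called lower, at -0.25 (adjusted p = 0.0175 by edgeR). In bulk RNA, fewer cells of a type and less RNA per cell cannot be told apart.

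Collagen transcripts were scarce, and their summed level was higher in both libraries with the fusion. All 44 genes together took 295 and 294 CPM in the mock libraries and 410 and 431 CPM in the fusion libraries. One gene, COL18A1, made up between 47.5% and 50.8% of this sum in a library. Summed over the 11 fibrillar genes, the level came to 11.7 and 10.9 CPM in mock libraries and to 28.9 and 31.7 CPM in fusion libraries. The 6 type IV genes summed to 16.8 and 16.3 CPM against 20.1 and 20.2 CPM, and the 27 other genes to 267 CPM in both mock libraries against 361 and 379 CPM. Fusion libraries were above mock libraries in each of these 3 sums, with no overlap. A single gene weighed heavily in each sum, so the sums do not show a rise across a class. COL1A1 made up 44.2% and 58.4% of the fibrillar sum in mock libraries and 74.3% and 67.4% in fusion libraries. COL4A5 made up between 50.7% and 55.6% of the type IV sum in a library. COL18A1 made up between 54.0% and 56.0% of the sum of the other genes.

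Counts were sufficient for a test in 22 of the 44 genes, by a filter that asks for enough counts in at least 2 libraries. No member passed it through the JAZF1-SUZ12 group alone, 18 passed it in all libraries of both groups, and COL4A3, COL9A1, COL11A2 and COL19A1 passed it with at least 1 library of mock below it. Of the 22, 7 rose and none fell at an adjusted p under 0.05 (edgeR quasi-likelihood test, Benjamini-Hochberg over all genes tested), whereas 13.3% of all 14750 genes tested rose and 11.4% fell. Of the 7, 6 rose at least 2-fold, as did 5.55% of all genes tested. At an unadjusted p under 0.05 there were 9 of the 22 members, beside 5315 of all 14750 genes tested. The median log2 fold change was 0.42 over the 22 members and 0.0032 over all genes tested, and 21 of the 22 values were above 0. With mock replicate 1 left out the collagen median became 0.54, and with mock replicate 2 left out 0.38, each over 26 tested genes. Omitting JAZF1-SUZ12 replicate 1 gave 0.67 over 25 tested genes, and omitting replicate 2 of that group gave 0.34 over 23. In 13 of the 22 both fusion libraries lay above both mock libraries, which was the case for 33.8% of all genes tested. The genes that rose were COL1A1 and COL5A1 among fibrillar collagens and COL6A1, COL6A2, COL9A3, COL14A1 and COL18A1 among the other types.

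**Figure D1:**
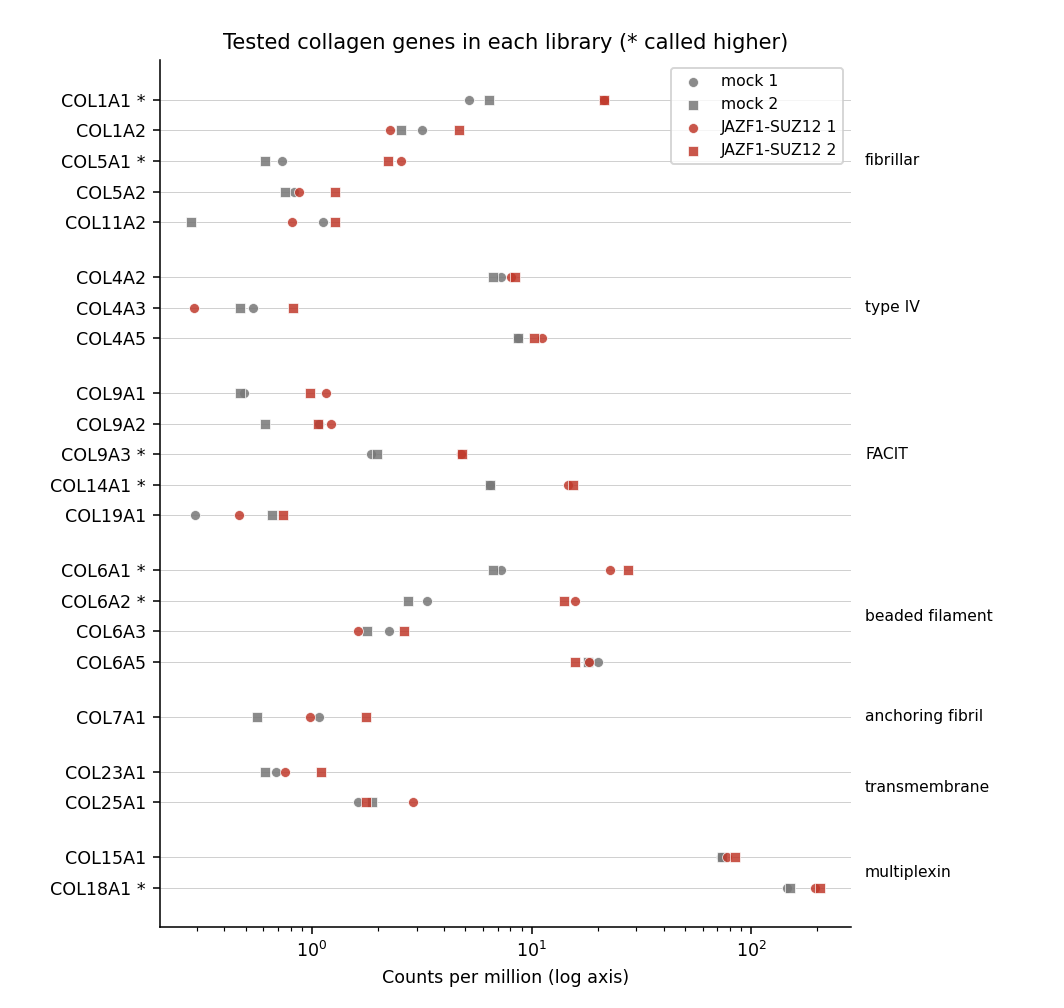
Level of each of the 22 tested collagen genes in CPM on a log axis, with 1 point per library (grey, mock; red, JAZF1-SUZ12; circle, replicate 1; square, replicate 2), grouped by class. The genes marked with a star, such as COL1A1 at 5.18 and 6.39 CPM in mock and 21.4 and 21.3 CPM in fusion libraries, were called higher and show no overlap of the groups, whereas the points of COL1A2 and COL6A3 overlap.

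Fibrillar collagens were led by COL1A1, which encodes the major chain of type I collagen, the main protein of bone, skin and tendon (GRCh38 chromosome 17, 50183289 to 50201632, minus strand). Its level was 5.18 and 6.39 CPM in the mock libraries and 21.4 and 21.3 CPM in the fusion libraries. All of the fusion values were above the mock values by several times the spread within either group. The log2 fold change was 1.86 ± 0.14 (SE; adjusted p = 8.75e-08 by edgeR). Its partner COL1A2, the other chain of type I collagen (chromosome 7, 94394561 to 94431232), did not follow. COL1A2 was at 3.18 and 2.54 CPM in mock libraries and at 2.26 and 4.67 CPM in fusion libraries, which lay on both sides of mock. Its log2 fold change was 0.28, with a 95% interval from -0.38 to 0.94 (adjusted p = 0.557 by edgeR), and it was -0.35 without JAZF1-SUZ12 replicate 2.

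COL5A1 encodes a chain of type V collagen, which is built into type I fibrils and limits their diameter (chromosome 9, 134641774 to 134844843, plus strand). It had 15 and 13 counts in mock and 44 and 54 counts in fusion libraries, or 0.734 and 0.610 CPM against 2.55 and 2.21 CPM. The groups did not overlap, and the log2 fold change was 1.79 ± 0.40 (SE; adjusted p = 0.00422 by edgeR). COL5A2, the gene of the partner chain, had 17 and 16 counts in mock and 15 and 31 counts in fusion libraries, or 0.832 and 0.751 CPM against 0.869 and 1.27 CPM, narrowly without overlap. For COL5A2 the log2 fold change was 0.43, with an interval from -0.59 to 1.44 (adjusted p = 0.567 by edgeR). COL11A2, a chain of the cartilage fibril, ranged from 0.282 CPM in mock replicate 2 to 1.27 CPM in JAZF1-SUZ12 replicate 2, with the groups overlapping (adjusted p = 0.527 by edgeR). Its log2 fold change of 0.57 became -0.12 without mock replicate 2. Thus 2 of the 5 tested fibrillar genes were called higher, beside 13.3% of all genes tested. The median log2 fold change of the 5 was 0.57, which is the value of COL11A2. Over the fibrillar genes tested in each fit, that median was 1.71 without mock replicate 1, 0.34 without mock replicate 2 and 0.20 without JAZF1-SUZ12 replicate 2.

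The remaining 6 fibrillar genes had too few counts for a test. COL2A1, the collagen of cartilage, had 0 counts in both mock libraries and 8 and 4 in the fusion libraries, at least 2.18-fold higher against a floor of 3 counts per library. COL3A1, which accompanies type I collagen in skin and vessels, had between 1 and 3 counts in every library. COL5A3, COL24A1 and COL27A1 had at most 6, and COL11A1 had 0 in all libraries.

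Type IV collagen was expressed unevenly among its 6 chains, and none of them passed the test. COL4A5 (chromosome X, 108439844 to 108697545) was at 8.71 and 8.69 CPM in mock libraries and at 11.2 and 10.2 CPM in fusion libraries. Both fusion values of COL4A5 were above mock, with a log2 fold change of 0.27 and an interval from -0.03 to 0.58 (adjusted p = 0.188 by edgeR). COL4A2 (chromosome 13, 110305812 to 110513209) was at 7.24 and 6.67 CPM against 8.05 and 8.39 CPM, a log2 fold change of 0.22 with an interval from -0.12 to 0.56 (adjusted p = 0.349 by edgeR). COL4A3, a chain of the kidney basement membrane, had between 5 and 20 counts and overlapping groups. Its log2 fold change of 0.17 had an interval from -1.16 to 1.51 (adjusted p = 0.875 by edgeR), and it was -0.79 without JAZF1-SUZ12 replicate 2. At an unadjusted p under 0.05 there were also 0 of 3 tested type IV genes, and 0 were called with DESeq2 or limma-voom. The intervals of COL4A2 and COL4A5 do not reach the log2 fold change of 1.86 of COL1A1. Those of the fibrillar genes COL1A2, COL5A2 and COL11A2, with upper limits of 0.94, 1.44 and 1.81, do not reach it either. The difference between the classes was not tested.

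COL4A1, whose protein normally pairs with that of COL4A2, was nearly absent. It had 4 and 3 counts in mock and 0 and 1 in fusion libraries, while COL4A2 had between 139 and 205 counts in the same libraries. The 2 genes are transcribed away from each other, and their RefSeq start sites lie 127 bases apart. Their promoter windows, each running from 250 bases before the start to 50 bases after it on GRCh38.p14, share 226 bases. The annotated gene bodies overlap on opposite strands, with a gap of -1422 bases, and the use of strand in counting is not given in the sources used here. Both windows are shown because they share most of their letters, read on opposite strands, and yet belong to genes of very unequal level. Capitals mark CG dinucleotides, of which each window holds 45.
COL4A1, chr13:110307108-110307407, minus strand: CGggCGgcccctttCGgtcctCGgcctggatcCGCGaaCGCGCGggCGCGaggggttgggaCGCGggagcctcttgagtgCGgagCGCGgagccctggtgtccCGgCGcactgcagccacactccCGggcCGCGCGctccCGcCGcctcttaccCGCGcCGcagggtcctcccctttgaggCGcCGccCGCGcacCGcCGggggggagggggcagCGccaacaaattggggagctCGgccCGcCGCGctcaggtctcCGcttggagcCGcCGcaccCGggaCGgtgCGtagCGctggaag
COL4A2, chr13:110307034-110307333, plus strand: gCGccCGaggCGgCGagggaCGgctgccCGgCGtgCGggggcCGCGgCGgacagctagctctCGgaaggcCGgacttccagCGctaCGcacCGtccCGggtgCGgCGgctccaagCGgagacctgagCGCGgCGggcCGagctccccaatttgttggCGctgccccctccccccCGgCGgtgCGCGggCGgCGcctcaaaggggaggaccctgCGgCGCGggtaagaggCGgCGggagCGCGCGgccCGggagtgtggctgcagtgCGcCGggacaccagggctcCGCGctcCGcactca
The other head-to-head type IV pairs were also unequal. COL4A6 had between 0 and 11 counts beside COL4A5 with between 178 and 250, and COL4A4 had between 1 and 6 counts beside COL4A3.

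**Figure D2:**
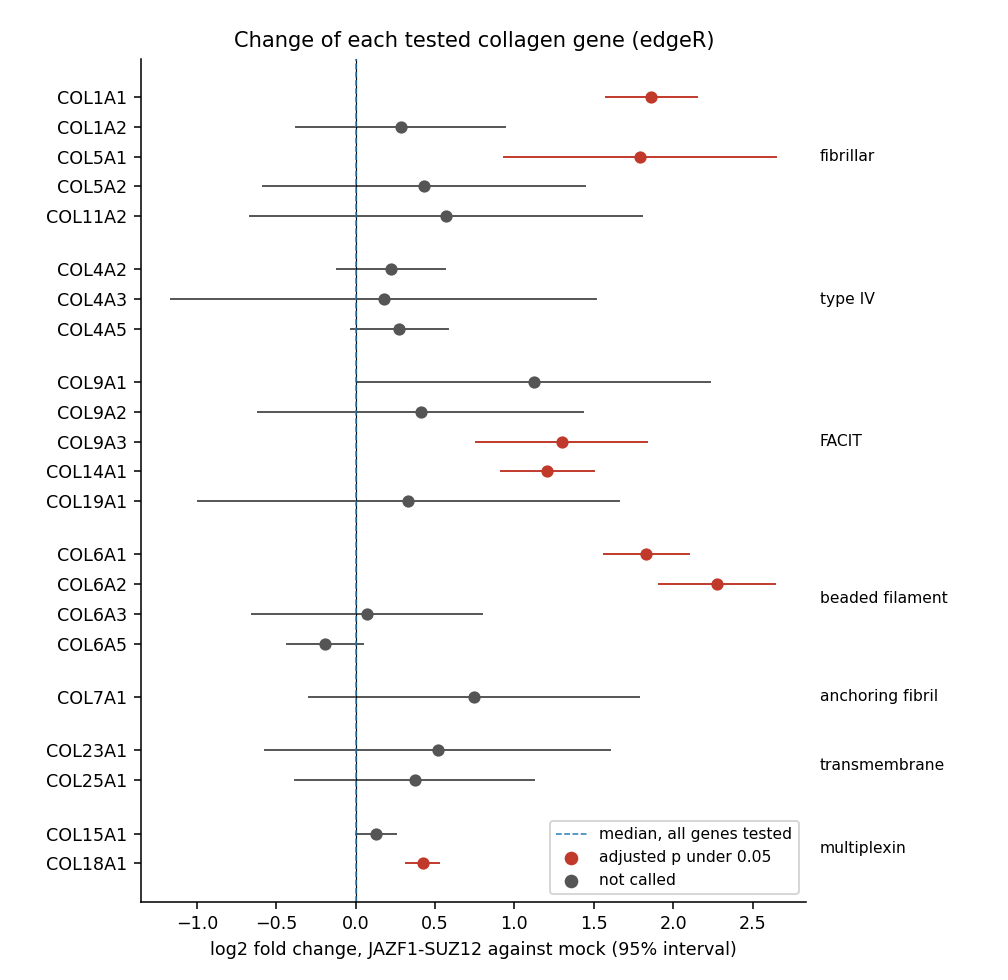
Log2 fold change between the fusion and mock libraries for each of the 22 tested collagen genes (edgeR, 2 libraries per group), with its 95% interval as a bar; red marks an adjusted p under 0.05 and the dashed line is the median of all genes tested. The 7 red points lie between 0.42 for COL18A1 and 2.27 for COL6A2, while the type IV genes lie between 0.17 and 0.27 with intervals that include 0.

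Collagen VI held COL6A2, the tested member with the highest log2 fold change. COL6A1 and COL6A2 encode chains that both occur once in each collagen VI molecule. COL6A1 (chromosome 21, 45981737 to 46005050, plus strand) was at 7.29 and 6.67 CPM in mock libraries and at 22.8 and 27.4 CPM in fusion libraries. COL6A2 (chromosome 21, 46098097 to 46132849, plus strand) was at 3.33 and 2.72 CPM in mock libraries and at 15.7 and 14.1 CPM in fusion libraries. Neither gene had overlapping groups. The log2 fold change was 1.83 ± 0.13 for COL6A1 (SE; adjusted p = 5.85e-08 by edgeR) and 2.27 ± 0.17 for COL6A2 (SE; adjusted p = 1.31e-07 by edgeR). COL6A3 encodes the long chain that completes the molecule, and its values of 2.25 and 1.78 CPM in mock lay within those of 1.62 and 2.62 CPM in fusion libraries. The log2 fold change of COL6A3 was 0.07, with an interval from -0.65 to 0.80 (adjusted p = 0.906 by edgeR); it was -0.096 without mock replicate 2 and -0.32 without JAZF1-SUZ12 replicate 2.

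COL6A5 encodes an alternative to the COL6A3 chain, and it was the most abundant collagen VI gene in mock by CPM. Its levels were 20.2 and 18.1 CPM in mock and 18.3 and 15.8 CPM in fusion libraries, which overlapped. COL6A5 was the single tested collagen gene with a value below 0, a log2 fold change of -0.19 with an interval from -0.43 to 0.05 (adjusted p = 0.233 by edgeR). COL6A6, a further alternative chain, had 1 and 3 counts in mock and 6 and 11 in fusion libraries. The ratio of its pooled CPM was 4.26, with an exact 95% counting interval from 1.39 to 17.4.

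FACIT collagens, which sit on the surface of fibrils and link them to other matrix, gave 2 of the 7 increases. COL14A1 (chromosome 8, 120059780 to 120372036, plus strand) was at 6.46 and 6.43 CPM in mock libraries and at 14.7 and 15.5 CPM in fusion libraries, with a log2 fold change of 1.21 ± 0.14 (SE; adjusted p = 1.09e-05 by edgeR). COL9A3, a chain of the cartilage collagen IX (chromosome 20, 62816244 to 62841159, plus strand), was at 1.86 and 1.97 CPM in mock libraries and at 4.75 and 4.83 CPM in fusion libraries. The change of COL9A3 was 1.30 ± 0.25 on the log2 scale (SE; adjusted p = 0.00147 by edgeR). TCFL5, which shares 45 exonic bases with COL9A3 on the opposite strand, had a log2 fold change of -0.02. In COL14A1 and COL9A3 the replicates lay close together and the groups were well apart.

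The partner chains of COL9A3 did not pass the test. COL9A1 had 10 counts in each mock library and 20 and 24 in the fusion libraries. Its log2 fold change was 1.12, with an interval from 0.01 to 2.23 before adjustment (adjusted p = 0.136 by edgeR). COL9A2 had 22 and 13 counts against 21 and 26, so that its groups overlapped. COL19A1 had between 6 and 18 counts in a library and was not called (adjusted p = 0.748 by edgeR). Among the untested FACIT genes, COL16A1 had 3 and 2 counts in mock and 9 and 4 in fusion libraries, a ratio of 2.60 with a counting interval from 0.87 to 9.33. COL21A1 had between 3 and 15 counts, COL12A1 and COL20A1 at most 3, and COL22A1 none.

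Multiplexins are basement membrane zone collagens that carry sugar chains, and their end fragments, such as endostatin from COL18A1, are known as inhibitors of vessel growth. COL18A1 (chromosome 21, 45405137 to 45513720, plus strand) was the most abundant collagen gene in every library, at 146 and 149 CPM in mock and 196 and 205 CPM in fusion libraries. The difference was modest but large beside the spread, with a log2 fold change of 0.42 ± 0.05 (SE; adjusted p = 1.16e-05 by edgeR). COL15A1, the other multiplexin, was at 72.6 and 73.3 CPM in mock libraries and at 77.7 and 83.9 CPM in fusion libraries. It was not called, with a log2 fold change of 0.13 ± 0.06 (SE; adjusted p = 0.125 by edgeR). COL18A1 shares 1401 exonic bases with SLC19A1, a folate transporter gene on the opposite strand. SLC19A1 fell from 70.5 and 79.3 CPM to 59.3 and 63.3 CPM (adjusted p = 0.00315 by edgeR), which is the opposite direction to COL18A1.

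Among the remaining types no gene was called. COL7A1, the anchoring fibril that ties epithelium to dermis, was at 1.08 and 0.563 CPM in mock libraries and at 0.985 and 1.76 CPM in fusion libraries (adjusted p = 0.298 by edgeR). COL25A1, a transmembrane collagen of neurons, was at 1.61 and 1.88 CPM against 2.90 and 1.76 CPM (adjusted p = 0.493 by edgeR), and its log2 fold change of 0.37 became -0.027 without JAZF1-SUZ12 replicate 1. COL23A1, also transmembrane, had between 13 and 27 counts (adjusted p = 0.513 by edgeR). The untested short-chain genes COL8A1, COL8A2 and COL10A1 had between 1 and 17 counts. COL8A2 had 8 and 3 counts in mock and 1 in each fusion library, and its ratio of pooled CPM was 0.18, with a counting interval from 0.020 to 0.83. COL28A1 had between 5 and 10 counts, COL17A1 and COL26A1 at most 3, and COL13A1 none. In all, 9 of the 44 collagen genes had at most 3 counts in every library.

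Levels of different genes were compared per kilobase of the longest transcript in GENCODE 29. On this scale COL18A1 and COL15A1 ranked 1 and 2 in both groups, at 22.4 ± 0.367 and 13.3 ± 0.0855 CPM per kb in mock (SD, n = 2 each). COL6A5 followed in mock at 2.07 ± 0.155 and COL6A1 at 1.65 ± 0.103 CPM per kb, a difference larger than their SDs. In fusion libraries COL6A1, COL6A2 and COL1A1 held places 3, 4 and 5 at 5.92 ± 0.755, 4.30 ± 0.330 and 3.18 ± 0.0109 CPM per kb (SD, n = 2 each). In mock they had ranked 4, 8 and 9. With the median length of coding transcripts in its place, COL6A5 was at rank 3 and COL6A2 at rank 9 in fusion libraries. COL6A2 and COL1A1, at 0.874 ± 0.123 and 0.860 ± 0.126 CPM per kb in mock, did not differ there beyond their spread. The type IV genes COL4A5 and COL4A2 moved from ranks 5 and 6 to 9 and 10, while their own levels were 1.34 ± 0.00214 and 1.07 ± 0.0622 CPM per kb in mock and 1.65 ± 0.103 and 1.27 ± 0.0371 CPM per kb in fusion libraries (SD, n = 2 each). With the median coding length COL4A5 was at ranks 5 and 8 and COL4A2 at ranks 4 and 6 in mock and fusion libraries.

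For molecules built from chains of different genes, the length-scaled level of each chain was divided by that of its partner in each library. The ratio of COL1A1 to COL1A2 was 1.45 and 2.24 in mock and 8.45 and 4.07 in fusion libraries, whereas type I collagen is built from COL1A1 and COL1A2 chains in a fixed and unequal number. The ratio of COL6A1 to COL6A3 was 8.22 and 9.48 in mock and 35.7 and 26.5 in fusion libraries. COL6A1 and COL6A2 stayed much closer to each other, with ratios of 1.79 and 1.999 in mock and 1.19 and 1.59 in fusion libraries. For COL5A1 to COL5A2 the ratio was 0.738 and 0.679 in mock and 2.45 and 1.46 in fusion libraries. None of these 4 ratios overlapped between groups. The exact two-sided permutation p was 0.333 for each, the smallest that 2 libraries against 2 can give, so this test could not decide. COL1A1, COL5A1 and COL6A1 were called higher in these same libraries, and COL1A2, COL5A2 and COL6A3 were not called. The separation of their ratios therefore largely restates those calls. In collagen IX the ratio of COL9A3 to COL9A2 was 1.997 and 3.74 in mock and 4.51 and 5.25 in fusion libraries. It was also without overlap (exact permutation p = 0.333), and here too only the first gene was called. The ratio of COL9A3 to COL9A1, at 7.25 and 8.01 against 7.82 and 9.37, and that of COL4A5 to COL4A2, at 1.20 and 1.31 against 1.39 and 1.22, did overlap. The size of a ratio depends on the length used, though its overlap between groups does not. With the median coding length COL9A3 to COL9A2 was at 0.407 and 0.762 in mock and 0.921 and 1.07 in fusion libraries. COL4A5 to COL4A2 was then at 0.799 and 0.865 in mock and 0.922 and 0.810 in fusion libraries. Which chain is in excess is therefore not settled for these pairs.

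**Figure D3:**
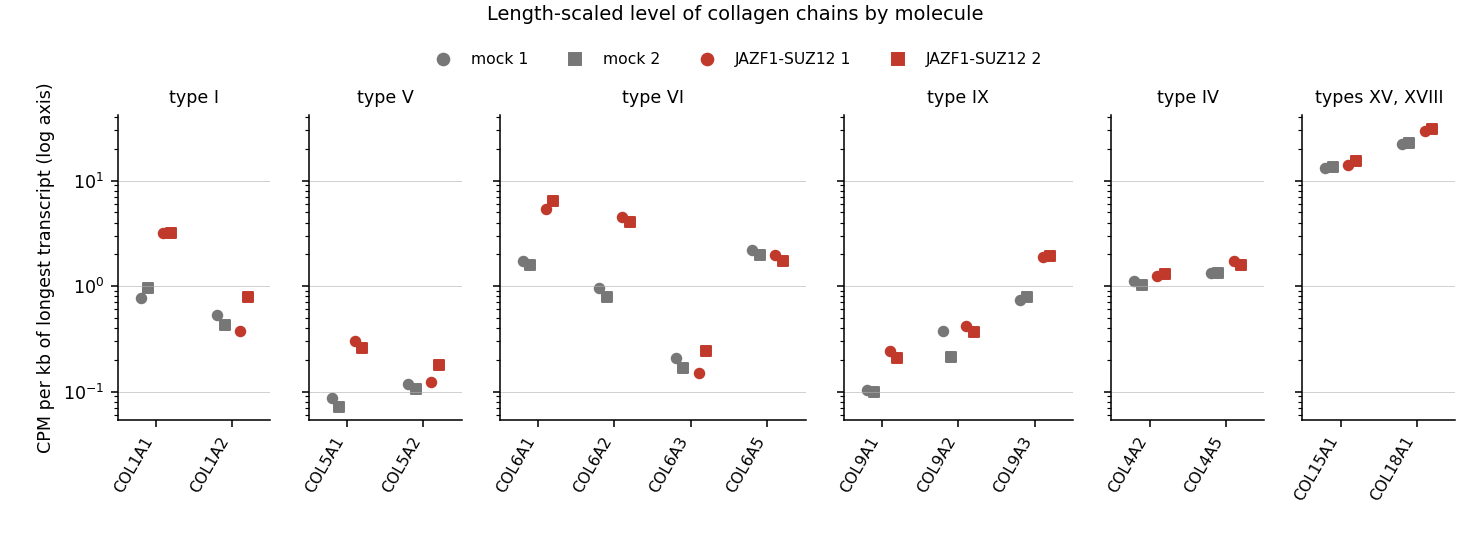
Level in CPM per kb of the longest transcript, on a log axis, for collagen chains arranged by molecule, with 1 point per library (grey, mock; red, JAZF1-SUZ12; circle, replicate 1; square, replicate 2). COL1A1, COL6A1, COL6A2 and COL9A3 are separated between the groups, as are COL4A2 and COL4A5 by a narrower gap, whereas COL1A2, COL6A3 and COL6A5 overlap.

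Collagen genes lie near each other at several places in the genome, and 3 of the 7 genes that rose are on chromosome 21. From COL18A1 to COL6A1 there are 468016 bases and from COL6A1 to COL6A2 93046 bases, all 3 genes on the plus strand. The 2 other tested genes between COL18A1 and COL6A1 were SLC19A1, which fell, and PCBP3, at 1.22 and 1.03 CPM in mock and 2.61 and 1.47 CPM in fusion libraries (adjusted p = 0.169 by edgeR). Neighbouring collagen genes elsewhere included none in which both were called. COL20A1, 452026 bases from COL9A3, had at most 2 counts, and COL6A6, 75489 bases from COL6A5, had at most 11.

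Promoter windows from RefSeq were found for 32 of the 44 genes, 3 of them called higher. The windows of COL5A1, COL6A2 and COL18A1 are shown because these genes rose in the fusion libraries. Capitals again mark CG dinucleotides.
COL5A1, chr9:134641553-134641852, plus strand: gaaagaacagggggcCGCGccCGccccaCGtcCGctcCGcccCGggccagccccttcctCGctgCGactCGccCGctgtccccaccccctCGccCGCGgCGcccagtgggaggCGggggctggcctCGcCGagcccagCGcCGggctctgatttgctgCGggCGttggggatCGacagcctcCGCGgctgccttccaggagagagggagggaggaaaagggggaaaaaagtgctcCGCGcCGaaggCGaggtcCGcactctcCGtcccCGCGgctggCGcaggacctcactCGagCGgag
COL6A2, chr21:46097862-46098161, plus strand: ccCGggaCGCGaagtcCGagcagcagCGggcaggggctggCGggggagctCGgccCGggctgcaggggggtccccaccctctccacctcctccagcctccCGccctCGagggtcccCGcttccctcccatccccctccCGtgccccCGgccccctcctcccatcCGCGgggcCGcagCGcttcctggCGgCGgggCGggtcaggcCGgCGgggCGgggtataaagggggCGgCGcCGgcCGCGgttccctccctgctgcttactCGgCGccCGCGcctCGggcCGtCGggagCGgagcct
COL18A1, chr21:45404915-45405214, plus strand: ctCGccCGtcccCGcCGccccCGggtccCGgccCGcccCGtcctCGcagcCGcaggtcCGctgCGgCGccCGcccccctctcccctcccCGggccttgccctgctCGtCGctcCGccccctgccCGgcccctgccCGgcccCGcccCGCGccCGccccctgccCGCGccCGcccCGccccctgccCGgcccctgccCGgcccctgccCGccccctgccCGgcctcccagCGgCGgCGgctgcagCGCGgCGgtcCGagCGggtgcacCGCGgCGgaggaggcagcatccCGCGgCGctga
These windows hold 36, 36 and 46 CG dinucleotides. The median was 14 over all 27305 promoter windows, 26 over those of 10895 genes tested and 28 over those of 1404 genes called higher. Among 12 collagen genes that were tested and not called, the median was 20.5 and the range was 4 to 45, so windows as rich as those that rose were also found in genes that were not called, COL4A2 and COL15A1 among them. The GC box, GGGCGG on either strand, which overlaps the CG count, was found 2, 4 and 9 times in the windows of COL5A1, COL6A2 and COL18A1 and in 44.6% of all windows, 69.1% of those of genes tested and 73.1% of those of genes called higher. TATAAA on either strand was found in COL6A2 and in 12.0% of all windows. Its share was 5.82% among genes tested and 7.34% among genes called higher. CCAAT on either strand was found in none of the 3 and in 35.7% of all windows. The share of CCAAT was 36.6% among genes tested and 31.8% among genes called higher.

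The genes that make, process, bind or degrade collagen were grouped by their known roles. Of 58 such genes 46 were tested, 13 rose and 4 fell, against 13.3% and 11.4% of all genes tested. Of the 13, ADAMTS2, LOXL1, ITGA2 and TIMP2 passed the filter on low counts through the fusion libraries alone, so their direction was fixed by the filter. Among 13 tested hydroxylases and glycosyltransferases, which modify the chain in the endoplasmic reticulum, 3 rose and 1 fell. P4HA1, a catalytic subunit of prolyl 4-hydroxylase, rose from 141 and 134 CPM to 190 and 187 CPM, a log2 fold change of 0.43 (adjusted p = 1.46e-05 by edgeR). P4HA2, its paralog, rose by 0.35 and PLOD1, a lysyl hydroxylase, by 0.23 on the log2 scale, while COLGALT1, which adds galactose to hydroxylysine, fell by 0.27 (edgeR, adjusted p = 0.000968, 0.00409 and 0.00101). P4HB, the shared subunit of prolyl 4-hydroxylase and the most abundant gene of the list at 538 ± 2.74 CPM in mock and 524 ± 21.5 CPM in fusion libraries (SD, n = 2 each), was not called (adjusted p = 0.380 by edgeR). Among 9 folding and export genes none rose, and PPIB, a prolyl isomerase, fell by 0.14 on the log2 scale (adjusted p = 0.0342 by edgeR); that call was lost without mock replicate 1, mock replicate 2 or JAZF1-SUZ12 replicate 2 (adjusted p = 0.125, 0.0559 and 0.172).

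Among 4 tested lysyl oxidases, which crosslink collagen outside the cell, LOXL1, LOXL2 and LOXL4 were called higher, beside 13.3% of all genes tested. LOXL1 is one of the genes whose direction the filter fixed. LOXL2 was at 2.15 and 2.07 CPM in mock libraries and at 7.71 and 5.73 CPM in fusion libraries, with a log2 fold change of 1.64 (adjusted p = 0.000143 by edgeR). LOXL1 had 6 and 8 counts in mock and 30 and 38 in fusion libraries (log2 fold change 2.25; edgeR, adjusted p = 0.00445). LOXL4 had 13 and 25 counts against 37 and 60 (adjusted p = 0.0248 by edgeR), a call that was lost without mock replicate 1 or JAZF1-SUZ12 replicate 2 (adjusted p = 0.169 and 0.154).

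Of 6 tested genes for propeptide processing, which trims fibrillar procollagen, 3 were called higher, beside 13.3% of all genes tested. Of the 3, ADAMTS2 passed the filter through the fusion libraries alone, so its direction was fixed by the filter. ADAMTS2, a procollagen N-proteinase, had 1 and 6 counts in mock and 16 and 25 in fusion libraries (adjusted p = 0.0177 by edgeR), and PCOLCE2, an enhancer of C-propeptide removal, had 25 and 16 against 37 and 64 (adjusted p = 0.0254 by edgeR). ADAMTS14, the most abundant of the list, rose from 117 and 121 CPM to 128 and 156 CPM (adjusted p = 0.0172 by edgeR). None of these 3 calls held in all 4 fits that left out 1 library. That of ADAMTS2 held only without mock replicate 2, that of PCOLCE2 was lost without mock replicate 2 or JAZF1-SUZ12 replicate 2, and that of ADAMTS14 was lost without mock replicate 1 or JAZF1-SUZ12 replicate 2.

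Of 8 collagen receptor genes tested, 2 were called higher and 1 lower, beside 13.3% and 11.4% of all genes tested, and 1 of the 2, ITGA2, passed the filter through the fusion libraries alone. GP6, the collagen receptor of platelets, fell from 43.1 and 45.3 CPM to 26.5 and 27.4 CPM, a log2 fold change of -0.74 ± 0.07 (SE; adjusted p = 2.69e-06 by edgeR). MRC2, which takes up collagen fragments, rose from 64.4 and 62.3 CPM to 82.7 and 88.4 CPM (adjusted p = 0.000101 by edgeR). ITGA2 had 9 and 4 counts in mock and 23 and 25 in fusion libraries (adjusted p = 0.0301 by edgeR), a call that was lost in 3 of the 4 fits that left out 1 library, the exception being the fit without mock replicate 1. ITGB1, the common integrin subunit and the most abundant receptor gene, had a level of 314 ± 15.7 CPM without the fusion and 299.9 ± 1.01 CPM with it (SD, n = 2 each; edgeR, adjusted p = 0.195).

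Of 6 tested collagen degradation genes, 2 were called higher and 1 lower, beside 13.3% and 11.4% of all genes tested. Of the 2, TIMP2 passed the filter through the fusion libraries alone. The 3 called members are inhibitors of metalloproteinases and not proteases. The proteases MMP9, MMP14 and CTSK were tested and not called (edgeR, adjusted p = 0.397, 0.910 and 0.248). TIMP2 had 3 counts in each mock library and 58 and 101 in the fusion libraries, a ratio of pooled CPM of 26.5 with an exact counting interval from 11.9 to 73.4 (adjusted p = 2.76e-06 by edgeR). TIMP3 rose from 2.89 and 3.19 CPM to 13.04 and 14.2 CPM, with a log2 fold change of 2.14 (adjusted p = 1.94e-07 by edgeR). TIMP1, the most abundant member at 207 and 209 CPM in mock, fell to 175 and 168 CPM, or by 0.31 on the log2 scale (adjusted p = 0.000287 by edgeR). Several other proteases had too few counts for a test. The collagenase MMP1 had 0 and 1 counts in mock and 9 and 7 in fusion libraries. MMP2, a gelatinase, had 0 counts in both mock libraries and 8 and 4 in fusion libraries, at least 2.18-fold higher against the floor of 3 counts per library. MMP13 had at most 3 counts in a library and MMP8 none.

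**Figure D4:**
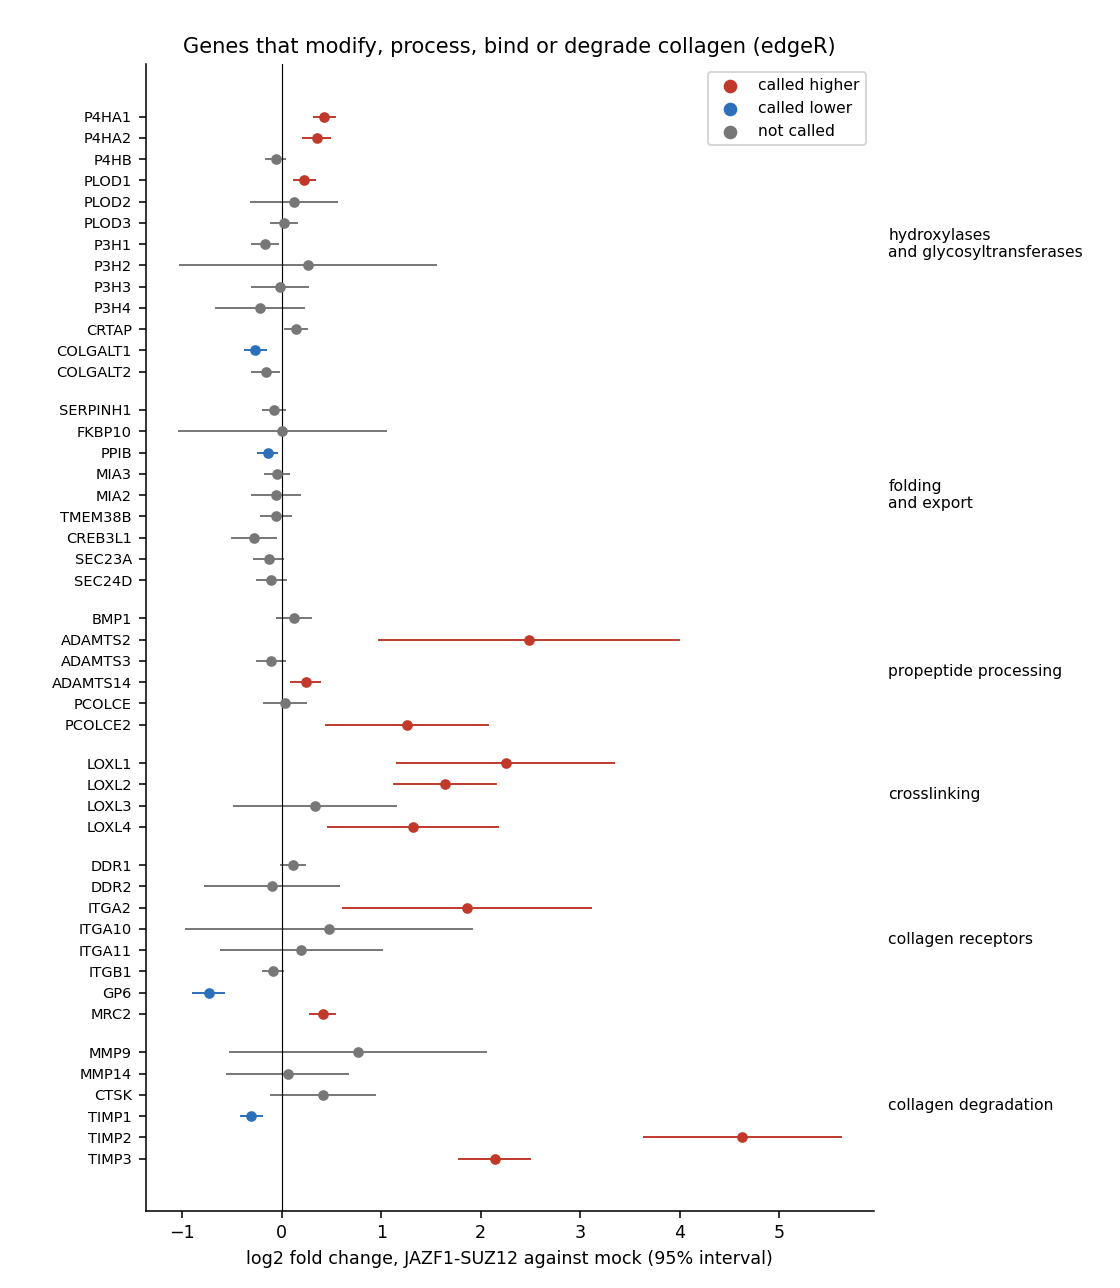
Log2 fold change between the fusion and mock libraries for the 46 tested genes that modify, fold, process, crosslink, bind or degrade collagen (edgeR, 2 libraries per group), with 95% intervals as bars; red marks genes called higher, blue genes called lower. The 13 genes called higher include TIMP2, TIMP3, LOXL1 and LOXL2, and the 4 called lower are COLGALT1, PPIB, GP6 and TIMP1.

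In the authors' deposited table, 5 of the 7 collagen genes that rose here also had an adjusted p under 0.05, and no other collagen gene did. Over all genes, 1351 of the 15895 with an adjusted p in that table were under 0.05. Of the 3643 genes called here, 1255 were among them. The table is of the same comparison, so it is not independent evidence. Its log2 fold changes were 1.48 for COL1A1, 1.82 for COL6A1, 2.52 for COL6A2, 1.07 for COL14A1 and 0.49 for COL18A1. COL5A1 and COL9A3 were at 1.44 and 0.82 in the authors' deposited table with adjusted p-values of 0.249 and 0.397. COL4A5 and COL11A2 had the opposite sign there, both at -0.36, against 0.27 and 0.57 here. The mean count in the authors' deposited table differed by over 5% from the mean of the scaled deposited counts for 17 of the 41 collagen genes it lists, so the table does not follow from these counts alone.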

How the data were processed

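The 4 libraries were made from poly(A)-selected RNA with a directional kit, per the labels' protocols. The authors deposited estimated counts per gene, one column per library. The submitters' processing notes name fastp 0.20.1, FastQC 0.11.7, MultiQC 1.5, kallisto 0.46.2 and DESeq2 1.30.1 and the build hg38, without roles. Use of strand and the annotation release are not given in the sources used here. The authors' table of their comparison holds, per the file headers, a mean signal per gene, a log2 fold change with its standard error, a test score, and a p-value with its adjusted form.

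Estimated counts were rounded, and 17 of 44 collagen genes had a fractional estimate in some library. Genes passing filterByExpr (14750) were scaled by TMM and tested with edgeR 4.0.16 in R 4.3.3 (quasi-likelihood F test, two-sided, group as the only term, Benjamini-Hochberg adjusted over all genes tested, threshold 0.05). Intervals of log2 fold changes are 95% and not adjusted. CPM divides by the library total. The floor is 3 counts, and counting intervals are exact (Clopper-Pearson) and cover counting error only. One count was worth between 0.0409 and 0.0579 CPM. Positions and lengths are from GENCODE 29 on GRCh38. In counts simulated for this comparison (14628 genes tested), edgeR recovered 92 of 100 genes changed 2-fold and 100 of 100 changed 4-fold, with 7 false calls. The simulation gave all genes the same variability and changed only these genes, all upward. Its rates therefore need not hold for the real libraries or for genes of low count.

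The members and lists were chosen with earlier results of these data known. Named were JAZF1, SUZ12, every called collagen gene, the fibrillar and type IV genes, the 5 most abundant uncalled others, and of each further list the called members (at most 5) and the most abundant one. Other collagen genes named, and SLC19A1 and PCBP3, were chosen after their values were seen. Alternatives were other scalings, DESeq2 1.42.0, limma-voom (limma 3.58.1), other filters and thresholds, the replicate number as a block, another gene length, and leaving out each library. One marker result is not reported here.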

Additional observations from a re-analysis of the deposited data

How the results depend on the processing

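The 7 collagen calls, all higher, were the same 7 genes under DESeq2 size factors, total counts, DESeq2, limma-voom, no filter, an adjusted p under 0.01 and each of the 4 fits that left out 1 library, in which the lone library of a group is assumed to vary like the other group. With the replicate number as a block the same 7 collagen genes were called, and the block changed no call of a collagen gene; libraries with the same number did not deviate together (r = -0.00073 across 14750 genes, which are not independent replicates). A filter at a mean of 50 counts left COL5A1 untested, so that 1 fibrillar gene was called in place of 2, and a 2-fold requirement removed COL18A1. The 17 calls among the genes that make, process, bind or degrade collagen became 11 at an adjusted p under 0.01 and 8 with the 2-fold requirement, by construction. Over all genes tested, DESeq2 called 2407 in place of 3643, and adjusted p under 0.01 left 2045. Among the genes that make, process, bind or degrade collagen the block gave 21 calls, and DESeq2 gave 13, without ADAMTS2, PCOLCE2, LOXL4 and ITGA2. Type IV genes gave 0 calls in every setting. Leave-one-out values were computed for 18 named collagen genes, and 5 of them, none called, changed sign when 1 library was left out. These were COL1A2 (from -0.35 to 0.67), COL11A2 (from -0.12 to 1.85), COL4A3 (from -0.79 to 0.66), COL6A3 (from -0.32 to 0.34) and COL25A1 (from -0.027 to 0.72), so their direction is not settled at this depth. Another gene length, the median of the coding transcripts, placed COL6A2 at rank 9 in place of 4, COL6A5 at rank 3 in place of 8 and COL1A1 at rank 5 as before in fusion libraries.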
